A study of Mus musculus with 12 samples.

Results

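A set of 8 genes of stromal inflammation and cell adhesion (Ptx3, Vcam1, Icam1, Il1rl1, Il6, Lcn2, Saa3 and C3) were followed in a mouse pre-osteoblast cell line treated with RSPO2, BMP2 or both proteins. Its members were taken from the gene table by symbol, and all 8 of them were among its 39032 genes. They were chosen by role and with earlier results of these libraries known, among them the measured FPKM of Vcam1 and Il1rl1, lower in the BMP2 group than in Control, so the comparison of BMP2 with Control is given as a description and nothing is read from it. Only 3 members, Vcam1, Il1rl1 and Ptx3, reached the level set for testing (at least 1 FPKM in at least 3 libraries, which 11548 genes met), and the other 5 stayed under 1 FPKM in every library. The name of the set thus covers genes of which most were barely detected in these cells. FPKM is a count of sequenced fragments scaled to the length of the transcript and to all mapped fragments of the library.

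The cells were MC3T3-E1 subclone 14, a clone of a line derived from mouse calvaria that forms mineralising osteoblasts in culture. The labels name no genetic modification, and all results come from this single clone. Poly(A) RNA was sequenced on day 5 in 12 libraries, which the series describes as 3 independent biological replicates in each of 4 groups. All groups, Control included, were grown in osteogenic medium, which is α-MEM with 10% serum, 1% antibiotic, ascorbic acid phosphate at 50 µg/mL and β-glycerophosphate at 5 mM. Control received vehicle. The RSPO2 group received recombinant R-spondin 2, a secreted protein that raises Wnt signalling at the receptor, at 200 ng/ml. The BMP2 group received recombinant bone morphogenetic protein 2, a TGF-β family ligand that drives osteoblast differentiation through SMAD proteins, at 100 ng/ml, and the BMP2+RSPO2 group received both proteins at these doses.

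Stromal cells of bone and connective tissue answer inflammatory cytokines such as interleukin-1 and TNF through the transcription factors NF-κB, AP-1 and C/EBP. The answer includes adhesion molecules that hold passing leukocytes (Vcam1 and Icam1), a soluble pattern recognition protein (Ptx3), a cytokine (Il6), acute phase and antimicrobial proteins (Lcn2 and Saa3) and a complement component (C3). Il1rl1 encodes ST2, the receptor of the alarmin interleukin-33, which is made as a membrane receptor and as a shorter soluble form that traps the ligand.

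The upstream sequences of the members are shown because these genes are known targets of the same inflammatory factors, while their levels here were very unequal. The RefSeq promoter table (GRCm38.p6) held windows for 7 of the 8 members, and Vcam1 had no entry in it. The windows of Ptx3, Il1rl1 and Il6 are shown as those of 2 expressed members and of a cytokine near 0, with C3 for its several matches, and those of Icam1, Lcn2 and Saa3 were searched in the same way. The 250 bases before each start are printed 5′ to 3′ on the strand of the gene, and capitals mark matches, on either strand, to the C/EBP core TTNNGNAA, the NF-κB consensus or the AP-1 site TGANTCA.
Ptx3, chr3:66219637-66219886, plus strand: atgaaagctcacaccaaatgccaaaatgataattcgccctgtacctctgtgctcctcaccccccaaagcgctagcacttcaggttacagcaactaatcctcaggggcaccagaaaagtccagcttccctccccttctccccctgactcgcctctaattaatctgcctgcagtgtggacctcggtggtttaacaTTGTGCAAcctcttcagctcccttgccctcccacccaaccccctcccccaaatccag
Il1rl1, first start, chr1:40429320-40429569, plus strand: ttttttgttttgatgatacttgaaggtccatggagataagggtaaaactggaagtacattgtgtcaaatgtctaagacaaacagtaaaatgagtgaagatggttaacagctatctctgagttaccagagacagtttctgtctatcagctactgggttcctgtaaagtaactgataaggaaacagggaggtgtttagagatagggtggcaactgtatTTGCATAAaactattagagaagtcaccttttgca
Il1rl1, second start, chr1:40439379-40439628, plus strand, inside the gene: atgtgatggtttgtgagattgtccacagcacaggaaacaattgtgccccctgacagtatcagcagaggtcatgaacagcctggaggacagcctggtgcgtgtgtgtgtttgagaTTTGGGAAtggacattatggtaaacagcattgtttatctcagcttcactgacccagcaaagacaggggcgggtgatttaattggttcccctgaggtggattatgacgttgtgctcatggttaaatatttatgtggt
Il6, chr5:30012864-30013113, plus strand: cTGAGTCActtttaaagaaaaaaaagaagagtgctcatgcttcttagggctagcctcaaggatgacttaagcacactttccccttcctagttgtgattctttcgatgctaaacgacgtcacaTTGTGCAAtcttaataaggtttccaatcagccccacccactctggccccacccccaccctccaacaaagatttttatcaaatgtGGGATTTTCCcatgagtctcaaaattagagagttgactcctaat
C3, chr17:57228137-57228386, minus strand: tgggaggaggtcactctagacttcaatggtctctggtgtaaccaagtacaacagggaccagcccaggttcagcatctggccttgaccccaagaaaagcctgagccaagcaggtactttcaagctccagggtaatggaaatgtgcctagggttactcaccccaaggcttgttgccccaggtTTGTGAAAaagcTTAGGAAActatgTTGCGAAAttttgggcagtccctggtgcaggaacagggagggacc
The C/EBP core was found in every window of the 7 members, and in 36.9% of the 32841 promoters of the table that could be searched. Of the 250 bases, 197 in the window of Lcn2 and 24 in that of Saa3 lie in annotated exons of the same gene. Ptx3 and Il6 held the same 8 letters, TTGTGCAA, beginning 57 bases before the start of Ptx3 and 128 bases before that of Il6. The NF-κB consensus searched was GGGRNWYYCC. Of the 7 members searched, which leave out Vcam1, Il6 alone held it, as GGGATTTTCC beginning 44 bases before its start (3.9% of all promoters). Il6 alone also held the AP-1 site, as TGAGTCA beginning 249 bases before the start (6.75%). The NF-κB search counted no site that departs from its pattern in any letter. The Icam1 window holds TGGAAATTCC, which departs from it in the first letter, so an NF-κB site there is not excluded. None of the windows held the SMAD1/5 element GGCGCC (9.59% of all promoters), the SMAD box GTCTG (42.2%) or the TCF/LEF letters TTCAAAG or ATCAAAG (7.48%). No motif overlapped another in the printed windows. These are letter matches in a fixed window, and nothing about binding of a factor was measured. Ptx3, whose window held the C/EBP core alone, was expressed, whereas Il6, with matches to 3 of the motifs, was near 0. For Il1rl1 the windows belong to separate known starts, and the table gives 1 value for the gene summed over 5 transcripts, so neither the start used nor the share of soluble and membrane ST2 can be read from it.

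The libraries were alike in summed FPKM, with 1 exception, but replicate 1 of every group differed from replicates 2 and 3 in some genes. Summed FPKM lay between 322074 and 380507 in 11 libraries and was 635139 in BMP2+RSPO2 replicate 1, where the 10 highest genes held 57.8% of the sum, against 11.4% to 19.8% elsewhere. Replicate 1 of every group also had higher Mki67, a proliferation gene (52.5 to 62.4 FPKM, against 9.34 to 26.9 FPKM in replicates 2 and 3). Dmp1 and Spp1, both osteoblast markers, were lower in replicate 1 than in replicates 2 and 3 of every group. In Control, Dmp1 was 0.16 against 27.11 and 34.79 FPKM, and Spp1 was 201 against 1616 and 1402 FPKM. With BMP2+RSPO2, Dmp1 was 21.35 against 732.77 and 731.61 FPKM, and Spp1 was 215 against 6051 and 6196 FPKM. The members' differences in BMP2+RSPO2, and the calls of other genes there, are therefore also given without its replicate 1. Replicate 1 of the other groups stays in that fit, so it is not balanced over replicate number. The fit of replicates 2 and 3 of every group alone is balanced, and is given for some genes. Each of the 7 osteoblast markers reached 1 FPKM in all 12 libraries, except Dmp1, which did so in 10. Their summed level, with Col1a1 the largest part of it, was 4414 to 8951 FPKM in Control and RSPO2. It was 9418 to 23171 FPKM in the groups with BMP2. Of the markers of other cells, Ptprc, Itgam and Adgre1 (leukocytes and macrophages), Fcer1a, Ms4a2, Mcpt4 and Cpa3 (mast cells, which carry ST2) and Cd3e and Cd8a (T cells) were listed at 0 in all 12 libraries. The 7 macrophage and leukocyte markers in the table summed to 1.36 to 6.89 FPKM, of which Cd68 reached 4.00 FPKM with BMP2+RSPO2 and 1.98 FPKM or less in the other groups, and Cd14 reached 3.18 FPKM, with BMP2. The 6 mast cell markers summed to 0.23 to 0.78 FPKM. Endothelial markers, from cells that also carry Vcam1 and Icam1, summed to at most 1.33 FPKM except in BMP2+RSPO2 replicate 1, at 5.98 FPKM, the library in which Vcam1 was highest within its group. Their part in the results was not tested.

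Vcam1, the adhesion molecule that binds the integrin α4β1 on leukocytes, fell with the combined treatment. Its level was 13.56, 9.05 and 8.44 FPKM in the 3 Control libraries and 8.65, 9.21 and 6.75 FPKM in the RSPO2 libraries. It was 4.64, 3.56 and 3.28 FPKM with BMP2 and 2.86, 1.46 and 1.59 FPKM with BMP2+RSPO2. The ranges of Control and RSPO2 overlapped, all 3 BMP2 libraries lay below both, and all 3 BMP2+RSPO2 libraries lay below BMP2. The group means, in the same order, were 10.35 ± 2.80, 8.20 ± 1.29, 3.83 ± 0.718 and 1.97 ± 0.774 FPKM (SD, n = 3). As in any bulk measurement, fewer cells that express a gene and less of its RNA per cell cannot be told apart.

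Il1rl1, the interleukin-33 receptor ST2, was highest with RSPO2 and under 1 FPKM in every library with BMP2. It was 4.49, 4.58 and 2.52 FPKM in Control and 5.55, 12.61 and 9.48 FPKM with RSPO2. With BMP2 it was 0.96, 0.70 and 0.44 FPKM, and with BMP2+RSPO2 it was listed at 0 in replicate 1 and measured 0.50 and 0.61 FPKM in replicates 2 and 3. Every RSPO2 library was above every Control library, every library with BMP2 was below both, and the BMP2 and BMP2+RSPO2 ranges overlapped. The means were 3.86 ± 1.16 FPKM in Control, 9.21 ± 3.54 FPKM with RSPO2 and 0.700 ± 0.260 FPKM with BMP2 (SD, n = 3). The gene passed the level for testing through the 6 Control and RSPO2 libraries alone, so a gene with its pattern could enter the tests only by being higher there, and its calls below are values of the gene rather than support for the set.

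Ptx3, a long pentraxin that binds microbes and complement and helps to hold hyaluronan matrix together, had another order of groups. Its level was 6.20, 9.47 and 6.72 FPKM in Control and 3.6, 6.98 and 5.62 FPKM with RSPO2. It was 10.59, 15.56 and 15.95 FPKM with BMP2 and 4.36, 2.04 and 1.74 FPKM with BMP2+RSPO2. The BMP2 libraries were the highest of all 12, Control and RSPO2 overlapped, and BMP2+RSPO2 lay below Control and BMP2 while overlapping RSPO2. The means were 7.46 ± 1.76, 5.40 ± 1.70, 14.0 ± 2.99 and 2.71 ± 1.43 FPKM in the same order (SD, n = 3).

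**Figure D1:**
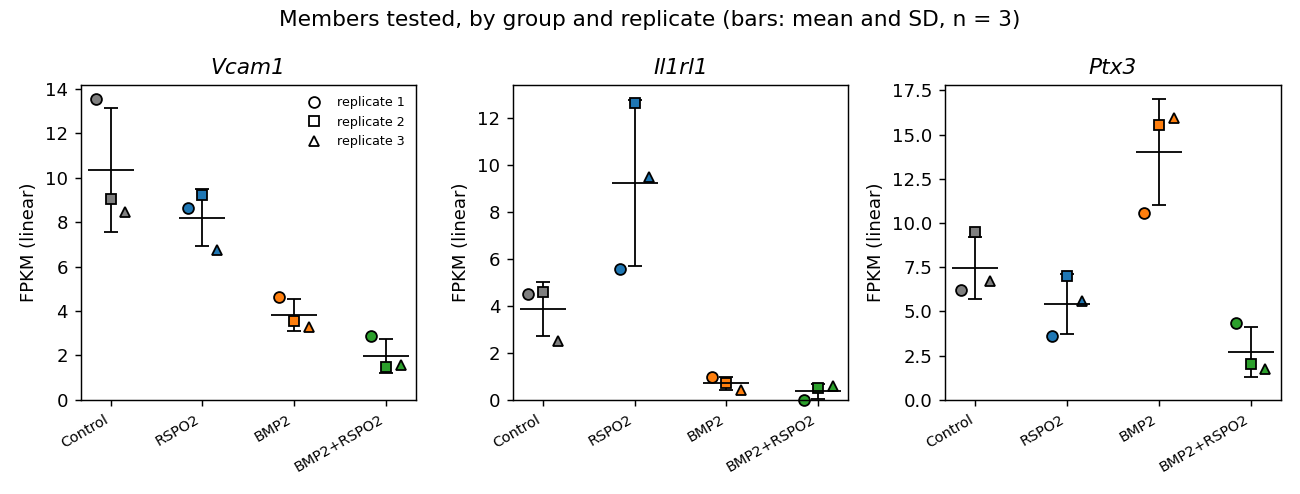
FPKM (linear axes starting at 0) of the 3 tested members in each of the 4 groups, with 1 point per library, marked by replicate number, and lines for the mean and SD (n = 3). Vcam1 and Il1rl1 are low in both groups with BMP2, whereas Ptx3 is highest with BMP2 (mean 14.0 FPKM) and lowest with BMP2+RSPO2 (mean 2.71 FPKM).

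The other adhesion molecule, Icam1, which binds the β2 integrins of leukocytes, was not expressed at a testable level. It lay between 0.07 and 0.20 FPKM in Control, from 0 to 0.05 FPKM with RSPO2, from 0 to 0.11 FPKM with BMP2 and from 0 to 0.30 FPKM with BMP2+RSPO2. The highest of the 12 values, 0.30 FPKM, was in BMP2+RSPO2 replicate 1, whose other 2 replicates were listed at 0. Il6, the cytokine, was 0.13, 0.10 and 0 FPKM in Control, 0.06, 0.11 and 0.17 FPKM with RSPO2, 0.11, 0.04 and 0.10 FPKM with BMP2, and 0, 0.06 and 0 FPKM with BMP2+RSPO2. All groups of Il6 overlapped or touched. C3, the central complement protein, reached at most 0.03 FPKM. Lcn2, a siderophore-binding acute phase protein, was above 0 only in Control replicate 3, at 0.04 FPKM, and in BMP2 replicate 1, at 0.05 FPKM. Saa3, the serum amyloid A of stromal and myeloid cells, was listed at 0 in all 12 libraries. With no filter on low values, the smallest adjusted p-value of these genes in any comparison was 0.179, for Il6 in BMP2+RSPO2 against RSPO2 (limma, Benjamini-Hochberg). By mean FPKM among the 21829 genes above 0 in any library, Ptx3, Vcam1 and Il1rl1 stood at the 73.6th, 70.4th and 61.8th percentile, Icam1 and Il6 at the 26th and 25.9th, and C3 and Lcn2 at the 9.97th and 8.11th.

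**Figure D2:**
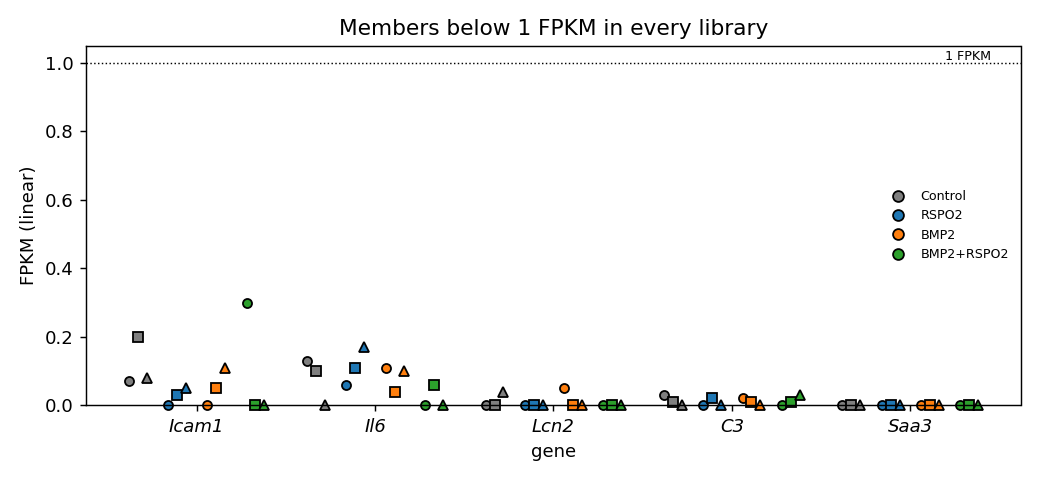
FPKM (linear axis starting at 0) of the 5 members under 1 FPKM in every library, with 1 point per library in each of the 4 groups. Icam1 reaches 0.30 FPKM in a single library, and Saa3 is listed at 0 in all 12.

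RSPO2 against Control asked what RSPO2 does without added BMP2. None of the 3 tested members was called at an adjusted p below 0.05 (limma on log2(FPKM + 1), Benjamini-Hochberg over all 11548 genes), in a comparison that called 9 genes, or 0.0779% of those tested, and 418 genes at an unadjusted p below 0.05. Il1rl1 had a mean 2.38 times that of Control, with a difference of 1.04 on the log2(FPKM + 1) scale (SE 0.29, 95% interval 0.39 to 1.69, adjusted p = 0.607). Its groups did not overlap, as was the case for 5.81% of all tested genes in that direction, and in replicates 2 and 3 alone the difference was 1.43 with an adjusted p of 0.0458. Vcam1 differed by -0.29 (SE 0.22) and Ptx3 by -0.42 (SE 0.29), each with an adjusted p of 1 and overlapping groups.

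BMP2 against Control holds the differences known when the members were chosen. The Vcam1 mean with BMP2 was 37.0% of that in Control, a difference of -1.22 on the log2(FPKM + 1) scale (SE 0.22). The difference of Il1rl1 was -1.50 (SE 0.29). These 2 genes were the members called lower, where 1.52% of all tested genes were called in either direction, and their groups did not overlap, as for 14.6% of all tested genes in that direction. Since these values helped to choose the members, the count is no result about them. Ptx3 was 1.88 times higher with BMP2, by 0.83 on the log2(FPKM + 1) scale (SE 0.29), with groups that did not overlap, as for 6.23% of all tested genes in that direction. It was not called, except in replicates 2 and 3 alone, where it differed by 0.90 (adjusted p = 0.0235).

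BMP2+RSPO2 against Control called all 3 tested members lower, where 23% of all tested genes were called and 19.4% were called lower. The Control values of Vcam1 and Il1rl1 helped to choose the members, so this count is no result about them. The groups of all 3 did not overlap, as for 37.3% of all tested genes in that direction. Vcam1 fell by 1.94 on the log2(FPKM + 1) scale (SE 0.22, adjusted p = 0.000389), which was a 5.25-fold lower mean FPKM. Il1rl1 fell by 1.83 (adjusted p = 0.00244). Ptx3 fell by 1.23 (SE 0.29, adjusted p = 0.0133). Without BMP2+RSPO2 replicate 1 the 3 differences were -2.14 for Vcam1, -1.61 for Il1rl1 and -1.53 for Ptx3, with adjusted p-values of 0.000188, 0.00551 and 0.00331. That fit keeps Control replicate 1, where Vcam1 was highest. In replicates 2 and 3 of every group alone all 3 were also called lower, with -1.64 for Ptx3. The median of all tested genes was -0.26 in this comparison. After median-of-ratios scaling of the libraries, which moved that median to -0.04, Vcam1 was still lower by 1.74 (adjusted p = 0.000621) and Il1rl1 by 1.72 (adjusted p = 0.00446), while Ptx3 differed by -1.03 with an adjusted p of 0.0555. Quantile normalisation (adjusted p = 0.0501) also ended the call of Ptx3, and in a fit of these groups alone its adjusted p was 0.05, under the threshold only before rounding. The comparison shares its Control libraries with the 2 before it.

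BMP2+RSPO2 against RSPO2, which shares no library with BMP2 against Control, asked what BMP2 does in cells that also have RSPO2. It called 2 members lower, where 26.1% of all tested genes were called and 21.8% were called lower. The groups of both did not overlap, as for 36.1% of all tested genes in that direction. Il1rl1 fell by 2.87 on the log2(FPKM + 1) scale (SE 0.29, adjusted p = 0.000131), from 5.55 or more FPKM in every RSPO2 library to 0.61 FPKM or less in every library with both proteins. Vcam1 fell by 1.65 (SE 0.22, adjusted p = 0.000584), a 4.16-fold lower mean FPKM. Without BMP2+RSPO2 replicate 1, in which Il1rl1 was listed at 0, these differences were -2.65 for Il1rl1 (adjusted p = 0.000343) and -1.86 for Vcam1 (adjusted p = 0.000272). After median-of-ratios scaling they were -2.74 and -1.44, against a median of all genes that moved from -0.26 to -0.03. Ptx3 differed by -0.81 with overlapping groups and was not called (adjusted p = 0.0611). It was called without BMP2+RSPO2 replicate 1 (-1.11, adjusted p = 0.0124) and without RSPO2 replicate 1 (-1.03, adjusted p = 0.0426), and in replicates 2 and 3 alone the difference was -1.33 (adjusted p = 0.00149).

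BMP2+RSPO2 against BMP2 asked what RSPO2 adds to BMP2, and Ptx3 was the member called in the fit of all libraries without a replicate block. It fell by 2.06 on the log2(FPKM + 1) scale (SE 0.29, adjusted p = 0.00651), a 5.17-fold lower mean FPKM with no overlap between the groups, where 4.38% of all tested genes were called and 3.74% were called lower. Without BMP2+RSPO2 replicate 1 the fall was 2.36 (adjusted p = 0.00191), and in a fit of these groups alone the adjusted p was 0.0802. Vcam1 differed by -0.72 (SE 0.22, 95% interval -1.21 to -0.23) and was not called (adjusted p = 0.0841), although its groups did not overlap, as for 28.6% of all tested genes in that direction. With the replicate number as a block, its adjusted p was 0.0166. Without BMP2+RSPO2 replicate 1 Vcam1 differed by -0.92 (adjusted p = 0.0329). In replicates 2 and 3 of every group alone it differed by -0.81 and was called. The median of all tested genes was -0.19 in this comparison and -0.03 after median-of-ratios scaling. After that scaling Vcam1 differed by -0.59 and was not called, while Ptx3 differed by -1.92 (adjusted p = 0.0162). Il1rl1 differed by -0.33 (95% interval -0.98 to 0.32, adjusted p = 0.484), with both groups under 1 FPKM and overlapping, and by -0.12 without BMP2+RSPO2 replicate 1 (adjusted p = 0.834).

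The interaction asked whether the difference made by RSPO2 depended on BMP2. None of the 3 tested members was called, in a test that called 0.294% of all genes, or 34 genes, and 1504 genes at an unadjusted p below 0.05. For Ptx3 the difference made by RSPO2 was lower with BMP2 than without it by 1.64 on the log2(FPKM + 1) scale (SE 0.41, adjusted p = 0.14), and without BMP2+RSPO2 replicate 1 the interaction was -1.94 with an adjusted p of 0.035. For Il1rl1, which RSPO2 libraries held at more than the Control level and BMP2+RSPO2 libraries at less than 1 FPKM, it was -1.37 (SE 0.42, adjusted p = 0.225). For Vcam1 it was -0.44 (SE 0.31, adjusted p = 0.552). Without BMP2+RSPO2 replicate 1 the interactions of Il1rl1 and Vcam1 were -1.16 and -0.64 (adjusted p = 0.217 and 0.306). In replicates 2 and 3 alone, Ptx3 (-2.23, adjusted p = 0.00568) and Il1rl1 (-1.44, adjusted p = 0.0484) were called and Vcam1 was not.

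**Figure D3:**
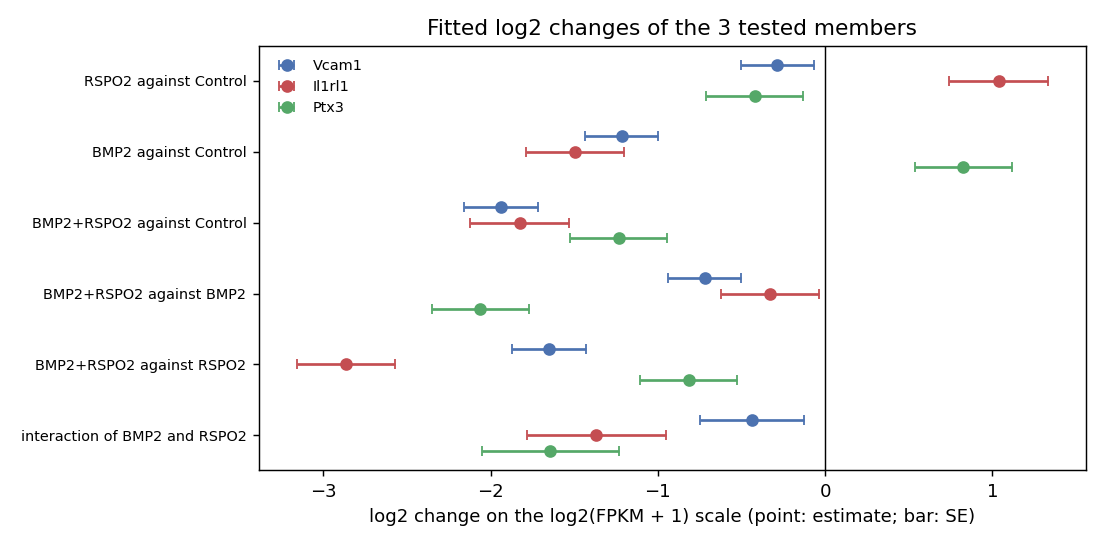
Differences on the log2(FPKM + 1) scale of Vcam1, Il1rl1 and Ptx3 in the 5 comparisons of groups and the interaction, as points with bars for the SE from limma, and 0 marked by a line. Vcam1 and Il1rl1 lie below 0 in both comparisons of BMP2+RSPO2 with a group without BMP2, and Ptx3 lies furthest below 0 in BMP2+RSPO2 against BMP2 (-2.06).

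The partners through which the members act were measured unevenly. Il33, the ligand of ST2, was at most 0.05 FPKM in any library, and its co-receptor Il1rap lay between 0.19 and 0.73 FPKM, so neither was tested. Il6ra, the specific interleukin-6 receptor, was also under 1 FPKM throughout, at 0.76, 0.70 and 0.85 FPKM with RSPO2 and at most 0.37 FPKM in every library of the other 3 groups. Il6st, the shared signal-transducing receptor gp130, was at 11.6 ± 1.14 FPKM in Control and 8.36 ± 0.664 FPKM with BMP2 (SD, n = 3) and was not called in any comparison of all 12 libraries. With BMP2+RSPO2 it was 13.01, 6.84 and 5.84 FPKM. Without replicate 1 of that group Il6st was called lower there than in Control (-0.78, adjusted p = 0.00159) and RSPO2 (-0.83, adjusted p = 0.000821). It was also called in both comparisons in replicates 2 and 3 of every group alone. Of the chains of integrin α4β1, Itgb1 was abundant (207 ± 11.5 FPKM in Control), whereas Itga4 was listed at 0 in all 12 libraries. Itgb1 was not called in any comparison as deposited. It was called higher in BMP2+RSPO2 against Control after quantile normalisation and against RSPO2 after either scaling. The Icam1-binding leukocyte integrins Itgal and Itgb2 stayed at or under 0.24 FPKM, and the C3a receptor C3ar1 at or under 0.30 FPKM. Slc22a17, a lipocalin 2 receptor, was between 0.64 and 2.65 FPKM and was not called with all 12 libraries. Without BMP2+RSPO2 replicate 1, its lowest library, it was called higher in that group than in Control (0.61, adjusted p = 0.0353) and RSPO2 (0.73, adjusted p = 0.0161). In replicates 2 and 3 of every group alone it was called against RSPO2 but not against Control.

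Tnfaip6 (TSG-6), which binds Ptx3 and transfers heavy chains onto hyaluronan, was 6.79, 2.49 and 1.09 FPKM with RSPO2 and 2.11, 1.78 and 0.97 FPKM in Control. With BMP2 it was 0.47, 1.21 and 0.79 FPKM, and with BMP2+RSPO2 it was listed at 0 in replicate 1 and was 0.68 and 0.65 FPKM in the others. Tnfaip6 thus passed the level for testing only through groups other than BMP2+RSPO2, and its call is a value of the gene alone. It fell by 1.45 on the log2(FPKM + 1) scale in BMP2+RSPO2 against RSPO2 (adjusted p = 0.0288), a call that ended after median-of-ratios scaling (adjusted p = 0.0522) and without replicate 1 of RSPO2, replicate 2 of RSPO2 or replicate 1 of BMP2+RSPO2 (adjusted p = 0.0772, 0.0632 and 0.0794). Vcan, the hyaluronan-binding proteoglycan versican, was between 3.72 and 9.96 FPKM in all libraries and was not called in any comparison of all 12 libraries.

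**Figure D4:**
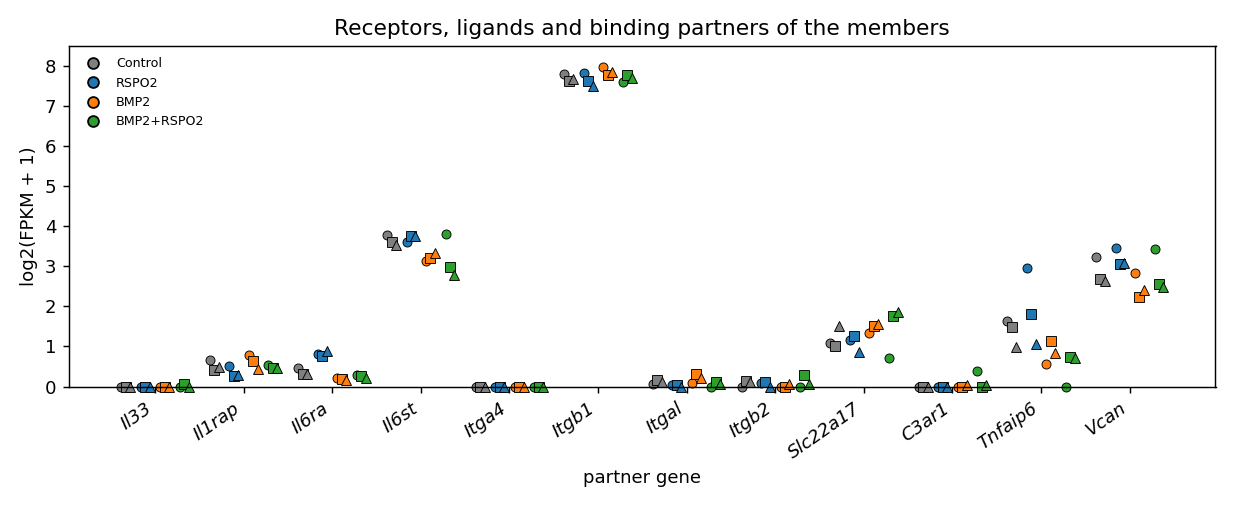
Level on the log2(FPKM + 1) scale of the named ligands, receptors and matrix partners of the members, with 1 point per library in each of the 4 groups. The Itgb1 points lie highest, and Il33 and Itga4 lie at or near 0.

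The wider gene lists of these pathways give the setting of the members. In RSPO2 against Control and in the interaction, none of the 7 lists had a called gene, where 0.0779% and 0.294% of all tested genes were called. Among 14 tested genes of NF-κB signalling and its feedback, 0 were higher and 4 lower in BMP2+RSPO2 against Control, where 23% of all tested genes were called, with a list median of -0.39 beside -0.26 for all tested genes. Against RSPO2, where 26.1% were called, 0 were higher and 4 lower. After either scaling the counts were 0 higher and 1 lower in both comparisons. Birc3, an NF-κB target that guards against TNF-induced death, fell from 3.04 ± 0.705 FPKM in Control to 1.48 ± 0.358 FPKM with both proteins (SD, n = 3), by 0.70 on the log2(FPKM + 1) scale (adjusted p = 0.0116). Nfkb1 and Rel, subunits of the factor, differed by -0.52 and -0.74 (adjusted p = 0.011 for each). Of the called NF-κB genes, Birc3 alone stayed called after median-of-ratios scaling (adjusted p = 0.0386), where Nfkb1 had an adjusted p of 0.133 and Rel of 0.0539. With BMP2+RSPO2 replicate 1 left out, Birc3, Nfkb1 and Rel differed from Control by -0.61, -0.51 and -0.93 (adjusted p = 0.0242, 0.0163 and 0.000683). The list includes known targets and inhibitors of the pathway as well as its subunits.

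Receptors and adaptors of interleukin-1, interleukin-33, TNF and Toll signalling had 1 gene higher and 0 lower of 14 tested in BMP2+RSPO2 against Control (list median -0.25), where 23% of all tested genes were called. It was Tnfrsf1b, the second TNF receptor, which rose from 2.59 ± 0.563 to 5.05 ± 1.31 FPKM (SD, n = 3), by 0.74 on the log2(FPKM + 1) scale (adjusted p = 0.0173). Its adjusted p was 0.0666 without Control replicate 1 and 0.0544 without BMP2+RSPO2 replicate 2, and without BMP2+RSPO2 replicate 1 it differed by 0.91 (adjusted p = 0.00522). Against RSPO2, where 26.1% of all tested genes were called, 1 gene was higher and 2 lower. Those lower were Il18 and Il1r1, which lost their calls after median-of-ratios scaling (adjusted p = 0.107 and 0.129). Il18 had an adjusted p of 0.0327 and Il1r1 of 0.107 without BMP2+RSPO2 replicate 1.

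In the interleukin-6 family and acute phase list, 2 of 11 tested genes were higher and 3 lower in BMP2+RSPO2 against Control, where 23% of all tested genes were called, with a list median of -0.10. After either scaling 2 were higher and 1 lower, since Jak1 and Osmr lost their calls. Lifr, the receptor of leukemia inhibitory factor, rose from 13.0 ± 0.511 to 39.8 ± 6.71 FPKM (SD, n = 3), by 1.53 on the log2(FPKM + 1) scale (adjusted p = 3.7e-05). Jak2, a kinase that acts below cytokine receptors, rose by 1.06 (adjusted p = 0.00283). Il11ra1, the interleukin-11 receptor, fell from 22.2 ± 4.54 to 5.62 ± 1.44 FPKM, by 1.81 on the log2(FPKM + 1) scale (adjusted p = 0.0029). Osmr, the oncostatin M receptor, which pairs with gp130 as the interleukin-6 receptor does, fell against RSPO2 by 1.00 (adjusted p = 0.00196), from 2.10 ± 0.575 to 0.540 ± 0.147 FPKM. Like Il1rl1, Osmr passed the level for testing through the 6 Control and RSPO2 libraries alone. Leaving out BMP2+RSPO2 replicate 1, Lifr, Jak2 and Il11ra1 differed from Control by 1.40, 1.23 and -1.63 (adjusted p = 1.86e-05, 0.000981 and 0.00747), and Osmr from RSPO2 by -0.91 (adjusted p = 0.00392). With BMP2 alone, where 1.52% of all tested genes were called, 1 gene of the list was called, Lifr, higher by 1.04 (adjusted p = 0.00196). Against BMP2, where 4.38% of all tested genes were called, 1 gene was higher (Lifr, by 0.49, adjusted p = 0.0446) and 1 lower (Il11ra1, adjusted p = 0.0418), and each of these calls ended when any 1 of 10 of the 12 libraries was left out (adjusted p up to 0.125 for both). Lifr was still called (adjusted p = 0.0397) and Il11ra1 was not (adjusted p = 0.0766) without BMP2+RSPO2 replicate 1.

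Of the complement list, 3 genes could be tested beside the untested C3. Masp1, a protease that starts the lectin pathway, was the 1 called, lower in BMP2+RSPO2 against Control by 1.70 on the log2(FPKM + 1) scale (adjusted p = 0.000644) and against RSPO2 by 1.80 (adjusted p = 0.000305), in comparisons that called 23% and 26.1% of all tested genes. These differences were -1.94 and -2.04 without BMP2+RSPO2 replicate 1 (adjusted p = 9.85e-05 and 5.47e-05). Its mean was 13.7 ± 1.51 FPKM in Control, 14.8 ± 2.0 FPKM with RSPO2, 6.23 ± 1.26 FPKM with BMP2 and 3.66 ± 1.46 FPKM with both (SD, n = 3), which is the order of groups seen for Il1rl1. Of 6 tested genes of immunoglobulin-type adhesion molecules and their integrin partners, 2 were higher and 2 lower in BMP2+RSPO2 against Control (list median -0.06), where 23% of all tested genes were called. The count was 3 higher and 1 lower after quantile normalisation, with Itgb1 added, and 2 higher and 1 lower after median-of-ratios scaling, and Itga9 lost its call under both (adjusted p = 0.233 and 0.137). Jam2 rose by 1.57 (adjusted p = 0.00466). It passed the level for testing without any Control library (0.24, 0.70 and 0.88 FPKM there), so its call is a value of the gene alone. Ncam1 rose by 0.82 (adjusted p = 0.0189, and 0.0543 and 0.0608 without Control replicate 2 and 3), while Jam3 fell by 0.92 (adjusted p = 0.0035). Jam2, Ncam1 and Jam3 differed by 1.91, 0.60 and -0.73 without BMP2+RSPO2 replicate 1 (adjusted p = 0.000594, 0.0384 and 0.00236). Among 5 tested pentraxin and hyaluronan genes, Has2, which makes hyaluronan, was the 1 called lower against Control (by 0.81, adjusted p = 0.0163, and 0.0528 after quantile normalisation and 0.0637 without Control replicate 1). In the lipocalin 2 and iron list of 5 tested genes, 1 was lower against Control, the ferritin heavy chain gene Fth1 (by 0.76, adjusted p = 0.0064, and 0.0815 after median-of-ratios scaling), and 1 was higher, the iron importer Slc11a2 (by 0.43, adjusted p = 0.045, and up to 0.126 when any 1 of 9 of the libraries was left out). The adjusted p without BMP2+RSPO2 replicate 1 was 0.0298 for Has2, 0.00688 for Fth1 and 0.0854 for Slc11a2.

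Ptx3 did not follow the other 2 tested members over the 12 libraries. Pearson's r of log2(FPKM + 1) was 0.80 between Vcam1 and Il1rl1, 0.32 between Vcam1 and Ptx3 and 0.03 between Il1rl1 and Ptx3. These values describe 12 libraries that share 4 treatments and carry no test. Genes with a Gm or Rik name and those of the mitochondrial genome were left out of the ranking by r. Of the other tested genes, those most like Vcam1 were Sema3c (r = 0.99), Akap12 (0.98) and Grb10 (0.97). Sema3c, a secreted semaphorin, was 3.68 ± 0.970 FPKM in Control, 3.48 ± 0.868 FPKM with RSPO2, 1.25 ± 0.398 FPKM with BMP2 and 0.370 ± 0.295 FPKM with both (SD, n = 3). The genes most like Il1rl1 were Jun, Gas2 and Nub1 (r = 0.98, 0.98 and 0.97). Jun, an AP-1 subunit, was 10.9 ± 1.27, 15.1 ± 1.70, 5.29 ± 0.618 and 3.93 ± 0.0902 FPKM in the same order of groups, so it too was highest with RSPO2 and lowest with both proteins. Those most like Ptx3 were Fbln7, Zfp503 and Bicc1 (r = 0.96, 0.92 and 0.91). Fbln7, a matrix fibulin, was 1.19 ± 0.133, 0.863 ± 0.118, 1.69 ± 0.286 and 0.560 ± 0.337 FPKM in that order.

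**Figure D5:**
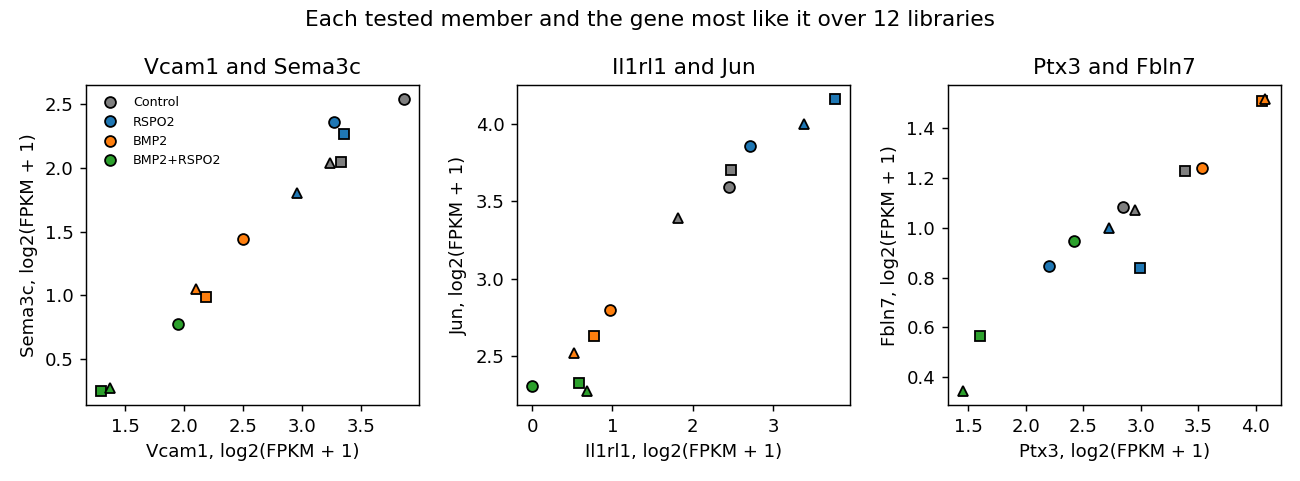
Level on the log2(FPKM + 1) scale of each tested member (horizontal axis) and of the gene with the highest Pearson's r to it among those ranked (vertical axis), with 1 point per library coloured by group and shaped by replicate. The BMP2 libraries lie at the upper end for Ptx3 and Fbln7 and in the lower part for the other 2 pairs, and BMP2+RSPO2 holds the lowest points of each panel.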

How the data were processed

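Poly(A) RNA of integrity number 7 or higher was sequenced from stranded libraries, per the labels' protocols. Per the submitters' processing notes, the tools were cutadapt 1.10, FastQC 0.10.1, HISAT2 2.0, StringTie 1.3.4 and edgeR (no version or role given), and the builds GRCm38 and mm10 are named, whereas the gene identifiers belong to a C57BL/6NJ annotation. The authors deposited FPKM values rounded to 2 decimals, with no counts. Depth is therefore unknown and no limit can be set for a value of 0. Ratios of low values between libraries showed no steps of whole reads (in 66 pairs the fullest bin held 2.08% to 4.32% of genes). The authors' deposited p and q columns, whose comparison is not stated, were not used.

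Members and gene lists were chosen with earlier results of these data known. Genes with at least 1 FPKM in 3 libraries were tested on log2(FPKM + 1) with limma 3.58.1 in R 4.3.3 (two-sided, variance trend, all 12 libraries in 1 fit, Benjamini-Hochberg adjustment, called below 0.05). A fold on this scale understates the change of low genes. The fit was tested on simulated data. Named genes are the members, their fixed partners, the 3 genes most like each tested member, and up to 3 called genes of smallest p per list and comparison. The ranking by likeness left out genes with a Gm or Rik name and those of the mitochondrial genome. Alternatives were a pseudocount of 0.1, no filter, a mean of at least 5 FPKM, quantile normalisation, median-of-ratios scaling, a replicate block, 1 variance prior, replicates 2 and 3 alone, only the groups compared, and leaving out each library. Libraries with the same replicate number deviated together in 13 of 15 pairs (correlation above 0.1, range -0.12 to 0.63), and in all 3 pairs of RSPO2 with Control and of BMP2+RSPO2 with Control and with BMP2. Motifs were searched on both strands of RefSeq promoters.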

Additional observations from a re-analysis of the deposited data

How the results depend on the processing

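The lower Vcam1 and Il1rl1 in BMP2+RSPO2 against Control and against RSPO2 stayed called in every alternative run for them, and the lower Ptx3 against BMP2 in 20 of 21. Il1rl1 passed the level for testing through Control and RSPO2 libraries alone, so its calls are values of the gene and no support for the set. Over all 3 tested members and 6 comparisons, 11 alternatives added a call, 17 ended one, and none reversed a direction that had been called. The cause of these moves was not tested, apart from settings that use fewer libraries or genes. The number of genes called moved more. In RSPO2 against Control it was 9, and it was 0 with a pseudocount of 0.1, 0 with a mean of at least 5 FPKM, 5 after quantile normalisation, 26 with the replicate block, 195 in replicates 2 and 3 alone, 0 with only the groups compared, and 0 to 21 without single libraries (21 without BMP2+RSPO2 replicate 1). Members called there were 1 in replicates 2 and 3 alone. In BMP2 against Control it was 175, and 113 with a mean of at least 5 FPKM, 329 with the replicate block, 963 in replicates 2 and 3 alone, where Ptx3 was added to the members called, and 65 (without Control replicate 1) to 403 (without BMP2+RSPO2 replicate 1). Vcam1 was called there in 16 of 21 alternatives (adjusted p up to 0.111) and Il1rl1 in 11 of 20 (up to 0.182). The 2 members called there became 1 with a pseudocount of 0.1, 0 with no filter, 1 with a mean of at least 5 FPKM and 0 to 2 without single libraries. Since the values of Vcam1 and Il1rl1 in BMP2 against Control helped to choose the members, these tallies are a description and no result about them. In BMP2+RSPO2 against Control 2656 became 1626 after quantile normalisation, 1639 after median-of-ratios scaling, 3994 in replicates 2 and 3 alone, 1172 with only the groups compared and 1595 to 2758 without single libraries (lowest without Control replicate 1). Against BMP2, 506 became 306 with no filter, 261 and 258 with the scalings in that order, 1710 with the replicate block, 2512 in replicates 2 and 3 alone, 35 with only the groups compared and 60 (without BMP2 replicate 3) to 709. The 1 member called there became 2 with the replicate block, 2 in replicates 2 and 3 alone, 0 with only the groups compared, and 1 to 2 without single libraries. Against RSPO2, 3015 became 1825 and 1800 with the scalings, 1237 with only the groups compared and 1847 (without RSPO2 replicate 2) to 3058, and the members went from 2 to 1 with a mean of at least 5 FPKM, which leaves out Il1rl1. The interaction's 34 became 12 and 15 with the scalings, 91 with the replicate block, 1109 in replicates 2 and 3 alone and 0 to 187 without single libraries (187 without BMP2+RSPO2 replicate 1). Its members went from 0 to 2 in replicates 2 and 3 alone and 0 to 1 without single libraries. The share of calls that were higher moved with quantile normalisation and median-of-ratios scaling from 33.7% to 44.1% and 42.8% (BMP2 against Control), from 15.9% to 49.2% and 47.0% (BMP2+RSPO2 against Control), from 14.6% to 51.7% and 50.0% (against BMP2), from 16.6% to 48.0% and 46.9% (against RSPO2) and from 2.94% to 25% and 20% (interaction). The replicate block changed no call of a member other than that of Vcam1 in BMP2+RSPO2 against BMP2. With 3 libraries a group and unknown depth, the precision of values under 1 FPKM is not known.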
